A study of Mus musculus with 15 samples.

Results

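The 34 genes described here encode the clathrin coat, its adaptors and the proteins that assemble, bend and cut the coated membrane, and they were read out in B16-F10 cells, a pigmented mouse melanoma line. They were chosen by symbol, as the rows of the gene count table whose Ensembl identifier carries 1 of 34 listed symbols in GENCODE M21. All 34 of 34 were in the table of 46078 identifiers, and all 34 passed the low-count filter that left 15152 genes for testing. They are the 3 clathrin chains, 7 subunits of AP-1, 5 of AP-2, 6 of AP-3, 6 membrane-bending and assembly proteins, 4 scaffolds, the cargo adaptor Dab2 and the 2 scission proteins Dnm2 and Snx9.

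The study set out to read gene expression after EZH2 was inhibited or depleted, with 3 libraries in each of 5 groups. In the compound arm, cells received 2 µM GSK126, which blocks the methyltransferase activity of EZH2, 2 µM DZNep, which inhibits S-adenosylhomocysteine hydrolase, or DMSO as vehicle. In the parallel arm, cells received siEzh2, an siRNA against Ezh2, or scr, a scrambled siRNA. All groups are the same cell line, and the labels give no treatment time, genetic change or siRNA sequence. Nothing in the labels says whether the libraries of a group came from separate cultures, so the p-values measure the spread between these libraries, which may be technical.

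Clathrin-coated vesicles form when an adaptor complex binds cargo and a phosphoinositide on the membrane and recruits clathrin triskelia, each built of heavy and light chains. AP-2 works at the plasma membrane, AP-1 at the trans-Golgi network and endosomes, and AP-3 at endosomes, where it sorts cargo such as tyrosinase towards melanosomes and lysosomes. Early proteins such as FCHO2, EPS15 and the intersectins start a pit, epsins and CALM (the product of Picalm) curve the membrane, and dynamin cuts the neck. In pigment cells the route through AP-3 is known from mice with mutated Ap3b1 or Ap3d1, which have diluted coats.

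Total counts were between 33299524 and 64545747 per library, and each member had at least 145 counts in every library. Ezh2, the target of the knockdown, was at 37.6 to 41.3 CPM (counts scaled to the library size, itself scaled by TMM) with siEzh2, against 215 to 227 CPM in scr. It was at 208 to 221 CPM with GSK126 and at 150.2 to 160.3 CPM with DZNep, against 204 to 209 CPM in DMSO. All 7 melanocyte markers were expressed. Their summed level was 21404 to 21763 CPM with GSK126 and 22044 to 22375 CPM with DZNep, against 25278 to 25625 CPM in DMSO, and 24070.2 to 25531 CPM with siEzh2, against 18904 to 19999 CPM in scr. The markers did not move alike with DZNep. Mean Dct was 4959.5 CPM, against 8772.8 CPM in DMSO, and Pmel, Sox10 and Mitf were also lower. Mean Tyrp1 was 10517 CPM, against 9051.6 CPM in DMSO, and Tyr and Mlana were also higher. The part of these shifts in markers, and of the mitochondrial share, in the results below was not tested. Of the markers of other cells, 2 of 6 for fibroblasts, 1 of 5 for blood, 2 of 4 for neurons and 0 of 4 for endothelium and 0 of 3 for keratinocytes passed the low-count filter, and Thy1, Cd3e, Adgre1, Cdh5, Krt5 and Krt14 had no count in any library. Their summed levels were at most 14.7 CPM for fibroblasts and 4.55 CPM for blood in any library. The neuronal sum, most of it Map2, was 23.4 to 26.7 CPM with GSK126 and 13.6 to 14.8 CPM with DZNep, against 12.7 to 16.5 CPM in DMSO, and 14 to 15.2 CPM with siEzh2, against 15.3 to 16.3 CPM in scr. Its part in the GSK126 results was not tested. Mitochondrial transcripts took 8.83 to 10.6% of counts with GSK126 and 6.17 to 8.4% with DZNep, against 8.36 to 9.27% in DMSO, and 7.38 to 9% with siEzh2, against 7.06 to 10.6% in scr.

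Levels of different genes were compared per kilobase of exon, since long transcripts collect more reads. In DMSO, the clathrin heavy chain Cltc stood at 167 ± 16.4 CPM per kb (SD, n = 3), the highest of the 34 transcripts. Epn1, which encodes epsin 1, followed at 60 ± 3.4 CPM per kb and the light chain Clta at 53.3 ± 4.73 CPM per kb, with Ap3b1, the β subunit of AP-3, at 38.6 ± 1.82 CPM per kb. The other light chain, Cltb, stood at 12.3 ± 0.88 CPM per kb. At the low end were Itsn1 (intersectin 1) at 3.92 ± 0.0843, Ap1s3 (a σ subunit of AP-1) at 2.36 ± 0.131 and Hip1r (a link between the coat and actin) at 1.03 ± 0.0517 CPM per kb. Of the 33 neighbouring pairs in this order, 21 had DMSO libraries that overlapped, so much of the middle of the order is not resolved. With the length of the longest transcript in place of all exons, no gene moved by more than 7 ranks.

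**Figure D1:**
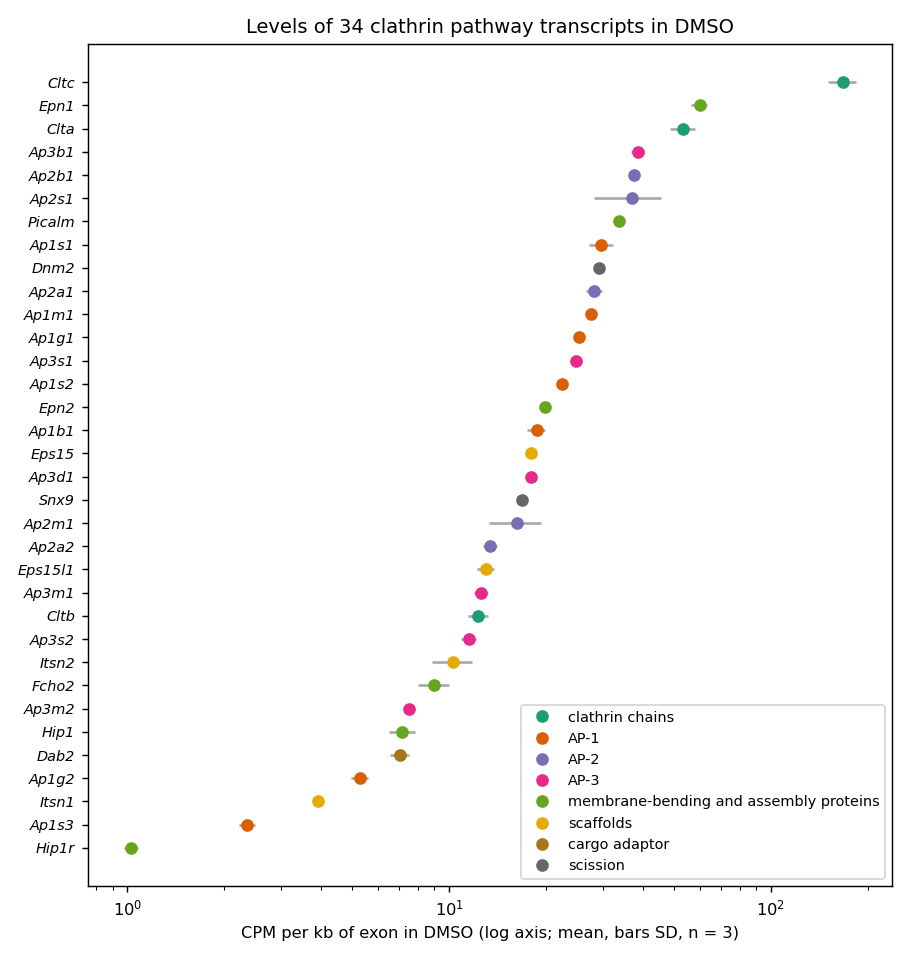
Level of each of the 34 transcripts in DMSO, as CPM per kb of exon on a log axis, with dots for the mean and bars for the SD of 3 libraries, coloured by role. Cltc stands apart at the top and Hip1r at the bottom, and neighbouring genes in between mostly have overlapping bars.

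A gene was called where the edgeR quasi-likelihood test gave a Benjamini-Hochberg adjusted p under 0.05 over all 15152 genes, and a fold change is a log2 value with its standard error. A value in CPM is a share of the library, so fewer cells of a kind and less RNA per cell cannot be told apart. With GSK126 against DMSO, 7 of the 34 members were called (20.6%), 6 higher and 1 lower, where 12.7% of all genes were called, 7.15% higher and 5.54% lower. The count was 3 without GSK126 replicate 2 and 4 without GSK126 replicate 3. The members' median log2 fold change was -0.027, against -0.009 for all genes, and the median size was 0.112, against 0.124. With DZNep against DMSO, 21 members were called (61.8%), 13 higher and 8 lower, where 62.3% of all genes were called, 31.2% higher and 31% lower, so the share of members was that of genes at large. Their median log2 fold change was 0.094, against 0.002 for all genes, and the median size was 0.165, against 0.33. With siEzh2 against scr, 10 members were called (29.4%), 9 higher and 1 lower, where 26.1% of all genes were called, 13.2% higher and 12.9% lower. Their median log2 fold change was 0.085, against -0.011 for all genes, and the median size was 0.12, against 0.154. Few changes were large: at a log2 fold change of at least 0.5 there was 1 called member with GSK126 (Dab2), 4 with DZNep (Ap1s2, Hip1r, Itsn1 and Ap1g2) and 1 with siEzh2 (Ap3m2).

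**Figure D2:**
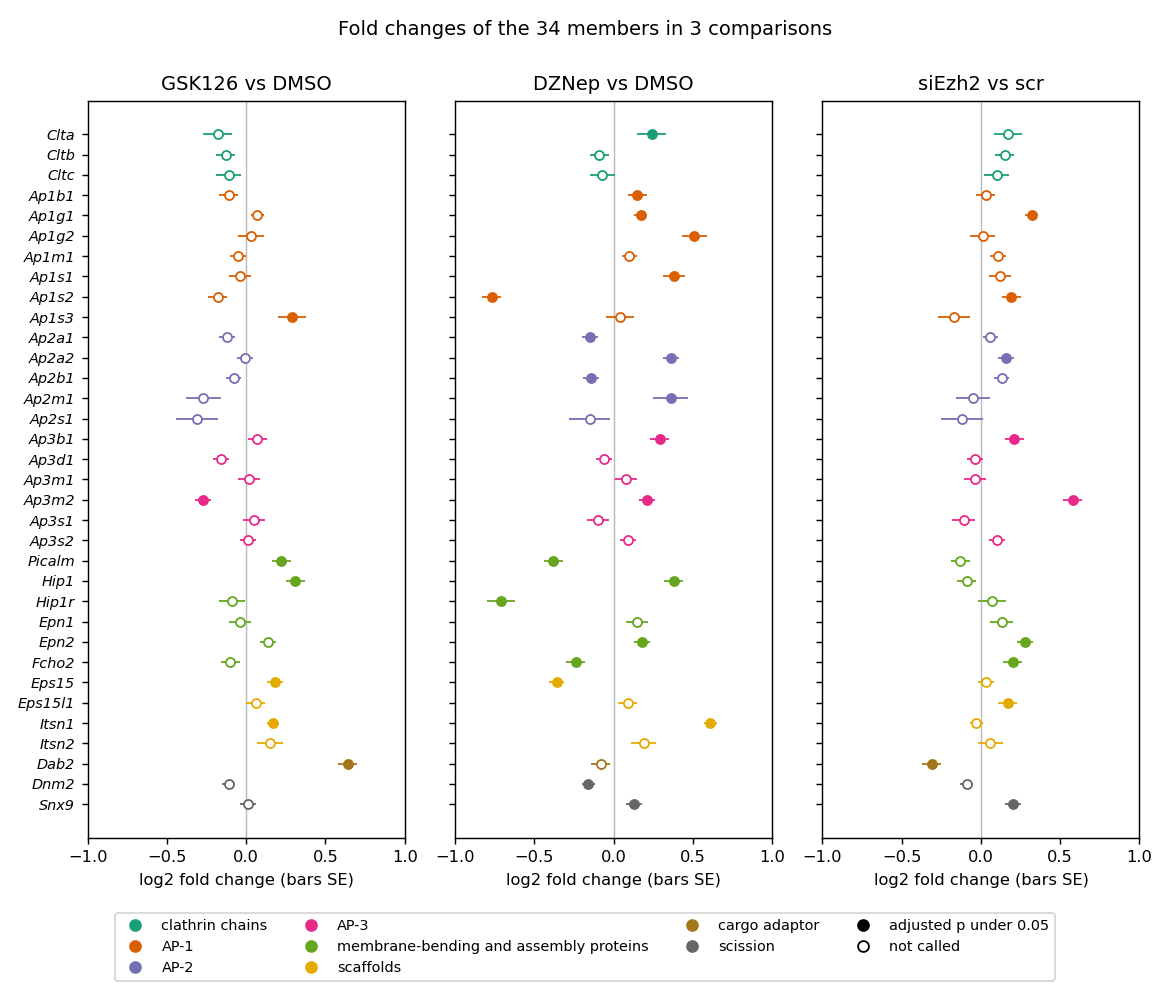
Log2 fold change of each of the 34 members (dots; bars are standard errors) with GSK126 and DZNep against DMSO and with siEzh2 against scr, filled where the adjusted p was under 0.05. The largest values are Dab2 with GSK126 at 0.64, Ap1s2 with DZNep at -0.77 and Ap3m2 with siEzh2 at 0.58.

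The clathrin chains had log2 fold changes from -0.18 to -0.11 with GSK126, -0.09 to 0.24 with DZNep and 0.1 to 0.17 with siEzh2. Their median size was 0.132 with GSK126, 0.094 with DZNep and 0.148 with siEzh2, against 0.124, 0.33 and 0.154 for all genes. Cltc, the heavy chain that forms the legs of the triskelion, had 1311, 1239.6 and 1386 CPM with GSK126 and 1239, 1481 and 1354 CPM with DZNep, against 1546, 1446 and 1270.2 CPM in DMSO. It had 1535, 1239 and 1469 CPM with siEzh2, against 1371, 1321 and 1264 CPM in scr. The libraries of each pair of groups overlapped, and Cltc was called in none of these comparisons, with 95% intervals of the log2 fold change of -0.28 to 0.05 with GSK126, -0.23 to 0.1 with DZNep and -0.06 to 0.26 with siEzh2. Of the light chains, which regulate the assembly of the heavy chain, Clta had 118, 119 and 103 CPM with DZNep, against 86.2, 99.5 and 102 CPM in DMSO. All 3 DZNep libraries lay above those of DMSO, and Clta rose by 0.24 ± 0.09 (adjusted p = 0.0253). That call was lost without DMSO replicate 1, DZNep replicate 1 or DZNep replicate 2 (adjusted p 0.0822 to 0.118). Clta was not called with GSK126 (-0.18 ± 0.09, adjusted p = 0.215) or with siEzh2 (0.17 ± 0.09, adjusted p = 0.185). Cltb was not called with GSK126 (-0.13 ± 0.06), DZNep (-0.09 ± 0.06) or siEzh2 (0.15 ± 0.06). Thus edgeR called 0 of the 3 chains with GSK126 and 0 with siEzh2, where 1 chain in each had an unadjusted p under 0.05 and DESeq2 called 0. Of all genes, 12.7% were called with GSK126 and 26.1% with siEzh2.

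The AP-1 subunits moved in opposite directions with DZNep, with 4 of 7 higher and 1 lower, where 31.2% of all genes were called higher and 31% lower. Ap1s2, which encodes the σ1B small subunit, had 65, 62.7 and 68.6 CPM with DZNep, against 116, 113 and 106 CPM in DMSO. Every DZNep library was well below the DMSO range, and the fall of 0.77 on the log2 scale (log2 fold change -0.77 ± 0.06, 1.7-fold lower, adjusted p = 7.61e-10) was the largest among the members in this comparison. Ap1g2, the γ2 large subunit, had 33.3, 30.7 and 29.8 CPM with DZNep, against 23.4, 21.8 and 20.8 CPM in DMSO, a rise of 0.51 ± 0.08 (adjusted p = 2.65e-05). Its exons share 412 bases with Thtpa on the other strand, and whether the counting used strand is not given in the sources used here, so reads of the pair cannot be told apart. Ap1s1, the σ1A subunit, had 78.7, 83.2 and 93 CPM with DZNep, against 60.8, 63.6 and 71.7 CPM in DMSO, and rose by 0.38 ± 0.07 (adjusted p = 0.00011). The σ1A and σ1B subunits fill the same place in the complex. Ap1g1, the γ1 large subunit, rose by 0.17 ± 0.04 with DZNep and Ap1b1, the β1 subunit, by 0.15 ± 0.06. The Ap1b1 call was lost without DMSO replicate 1 or 2 or DZNep replicate 2 or 3 (adjusted p 0.081 to 0.147). Ap1m1, the μ1A subunit that reads tyrosine-based sorting signals, was not called with DZNep (0.1 ± 0.05, adjusted p = 0.0773).

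With GSK126, 1 of the 7 AP-1 subunits was called, where 12.7% of all genes were called. Ap1s3, the σ1C subunit, had 7.8, 8.89 and 8.15 CPM with GSK126, against 7.17, 6.76 and 6.42 CPM in DMSO, and rose by 0.29 ± 0.09 (adjusted p = 0.0339). That call was lost without DMSO replicate 2 or 3 or GSK126 replicate 2 or 3 (adjusted p 0.0694 to 0.156). With siEzh2, Ap1g1 and Ap1s2 were called. Ap1g1 had 213, 202 and 203 CPM with siEzh2, against 163, 165 and 166 CPM in scr, with no overlap, and rose by 0.32 ± 0.04 (adjusted p = 1.61e-05). Exons of Ap1g1 share 1435 bases with the antisense transcript Gm17344. Ap1s2 had 106, 94 and 105 CPM with siEzh2, against 86.6, 95.5 and 86 CPM in scr, where 1 scr library lay inside the siEzh2 range. It rose by 0.19 ± 0.06 (adjusted p = 0.0222), a call lost without scr replicate 1 or 3 or siEzh2 replicate 1 or 3 (adjusted p 0.0633 to 0.0945).

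Of the 4 called members with the largest falls under DZNep (Ap1s2, Hip1r, Picalm and Eps15), 3 had a promoter window at the annotated gene start. Those 3 windows are shown because these genes fell together under DZNep. They run from 250 bases before to 50 after the start, from RefSeq on GRCm38.p6, and all lie on the plus strand: chrX:163908767-163909066 for Ap1s2, chr5:123973378-123973677 for Hip1r and chr7:90129963-90130262 for Picalm. Capitals mark CACGTG (the E-box read by MITF and related factors) and GGGCGG (a GC box, also as its reverse complement).
Ap1s2: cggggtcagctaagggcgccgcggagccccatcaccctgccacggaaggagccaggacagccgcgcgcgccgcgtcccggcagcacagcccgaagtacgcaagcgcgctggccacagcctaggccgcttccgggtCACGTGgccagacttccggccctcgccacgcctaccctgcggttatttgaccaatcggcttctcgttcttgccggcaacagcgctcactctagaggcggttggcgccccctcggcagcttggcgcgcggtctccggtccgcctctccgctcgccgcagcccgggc
Hip1r: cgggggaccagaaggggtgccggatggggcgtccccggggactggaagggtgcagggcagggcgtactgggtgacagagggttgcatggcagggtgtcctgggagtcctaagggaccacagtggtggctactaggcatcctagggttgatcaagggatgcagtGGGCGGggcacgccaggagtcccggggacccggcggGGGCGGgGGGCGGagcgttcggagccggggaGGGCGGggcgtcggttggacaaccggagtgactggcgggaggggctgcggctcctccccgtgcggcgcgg
Picalm: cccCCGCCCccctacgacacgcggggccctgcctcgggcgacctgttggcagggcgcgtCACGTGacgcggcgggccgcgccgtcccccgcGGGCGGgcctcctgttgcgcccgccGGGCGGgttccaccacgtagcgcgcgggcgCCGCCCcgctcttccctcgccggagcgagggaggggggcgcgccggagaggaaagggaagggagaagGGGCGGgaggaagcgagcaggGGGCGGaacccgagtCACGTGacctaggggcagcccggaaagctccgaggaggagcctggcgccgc
Ap1s2 held CACGTG once, at base -115 from the start, and Picalm held it at -191 and -1. In both genes it stood within GTCACGTG, a longer form that 2.25% of all windows held. The longer form was in 5.88% of the 34 windows of the 30 members with a window, and in 2 of these members. Hip1r held no CACGTG and had GGGCGG at -87, -51, -44 and -20, and Picalm had 6 GGGCGG matches. On either strand, CACGTG was in 7.15% of 32851 windows of the same length and in 17.6% of the members' windows, from 5 of 30 members. GGGCGG was in 35.7% of all windows and in 73.5% of the members' windows, from 23 of 30 members. The other motifs searched on both strands were CATGTG (14.2% of all windows, 2.94% of the members' windows), TGATGNAA (3.97%, 2.94%), a site of the NRF1 type (6.23%, 20.6%) and CCAAT (37.4%, 35.3%). These are matches of letters and not measured binding.

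Among the 5 AP-2 subunits, DZNep raised 2 and lowered 2, where 31.2% of all genes were called higher and 31% lower. Ap2a2, the αC large subunit, had 96.2, 95.8 and 100 CPM with DZNep, against 75, 72.6 and 80.2 CPM in DMSO, and rose by 0.36 ± 0.05 (adjusted p = 3.02e-06). Ap2a1, the αA form of the same subunit, had 105, 111 and 112 CPM with DZNep, against 120, 115 and 129 CPM in DMSO, and fell by 0.15 on the log2 scale (adjusted p = 0.0148). Neither pair of groups overlapped, and the α subunits changed in opposite directions, so that their levels came closer. The call of Ap2a1 was lost without DMSO replicate 3 or DZNep replicate 1 (adjusted p 0.0719 to 0.0757), and its exons share 720 bases with Fuz on the other strand. Ap2m1, the μ2 subunit that binds tyrosine-based signals at the plasma membrane, had 85.9, 84.5 and 88.1 CPM with DZNep, against 57.9, 62.2 and 81.4 CPM in DMSO. DMSO replicate 3 stood close to the DZNep libraries, and the rise of 0.36 ± 0.11 (adjusted p = 0.0117) lost its call without DMSO replicate 1 or 2 (adjusted p 0.0519 to 0.0556). Ap2b1, the β2 subunit that binds clathrin, fell by 0.14 on the log2 scale (adjusted p = 0.0154), a call lost without DZNep replicate 1, where the log2 fold change was -0.1 (adjusted p = 0.0923). Ap2s1, the σ2 subunit, was not called (-0.15 ± 0.13, adjusted p = 0.334), with DMSO libraries spread from 46.4 to 69 CPM.

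With GSK126, edgeR called 0 of the 5 AP-2 subunits, with 3 at an unadjusted p under 0.05 and 0 called by DESeq2, and log2 fold changes from -0.31 to -0.01. Of all genes, 12.7% were called with GSK126. With siEzh2, Ap2a2 rose by 0.16 ± 0.05 (adjusted p = 0.0205), and the call was lost without scr replicate 2 or siEzh2 replicate 1 or 2 (adjusted p 0.0683 to 0.0873). The other 4 AP-2 subunits were not called with siEzh2.

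Of the 6 AP-3 subunits, 1 was called with GSK126, 2 with DZNep and 2 with siEzh2. Over all genes, 12.7%, 62.3% and 26.1% were called. Ap3m2 was the only subunit called in each of these comparisons. Ap3m2 encodes μ3B, the form of the medium subunit known from neurons. It had 26.8, 30 and 27.8 CPM with GSK126 and 40.5, 38.1 and 39.7 CPM with DZNep, against 35.2, 33.3 and 33.5 CPM in DMSO, and 36.5, 36.2 and 37 CPM with siEzh2, against 24.1, 23.9 and 25.5 CPM in scr. Every GSK126 library was below DMSO, every DZNep library above it, and every siEzh2 library above scr. Ap3m2 thus fell by 0.27 on the log2 scale with GSK126 (adjusted p = 0.00245), rose by 0.21 ± 0.05 with DZNep (adjusted p = 0.00185) and rose by 0.58 ± 0.06 with siEzh2 (1.5-fold, adjusted p = 1.34e-07). The scr libraries were the lowest of all 15, below every DMSO library.

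Ap3b1, the β3A subunit mutated in the pearl mouse, had 224, 223 and 199 CPM with DZNep, against 178, 183 and 167 CPM in DMSO, and rose by 0.29 ± 0.06 (adjusted p = 0.000263). It had 186, 198 and 177 CPM with siEzh2, against 153, 167 and 167 CPM in scr, and rose by 0.21 ± 0.06 (adjusted p = 0.0142). The siEzh2 call was lost without scr replicate 1 or siEzh2 replicate 2 (adjusted p 0.0574 to 0.0837). The δ subunit Ap3d1, mutated in the mocha mouse, was called in none of the 3 comparisons (-0.16 ± 0.05 with GSK126, -0.06 ± 0.05 with DZNep and -0.04 ± 0.05 with siEzh2). Ap3m1, the widely expressed μ3A form, and the σ3 subunits Ap3s1 and Ap3s2 were not called in them either, with log2 fold changes between -0.11 and 0.1. Exons of Ap3m1 share 2090 bases with Vcl on the other strand.

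Among the 6 membrane-bending and assembly proteins, DZNep lowered Picalm, Hip1r and Fcho2 and raised Hip1 and Epn2. Of all genes, 31% were called lower and 31.2% higher with DZNep. Picalm, whose product CALM binds phosphoinositide and clathrin and sorts SNARE proteins, had 428, 409 and 387 CPM with DZNep, against 548, 537 and 509 CPM in DMSO, and fell by 0.38 on the log2 scale (adjusted p = 1.8e-05). With GSK126 it had 601, 622 and 636 CPM, above every DMSO library, and rose by 0.22 ± 0.06 (adjusted p = 0.0192). The GSK126 call was lost without DMSO replicate 3 or GSK126 replicate 2 or 3 (adjusted p 0.0625 to 0.0827). Hip1 and Hip1r encode related proteins that bind clathrin light chains and link coats to actin. Hip1 had 119, 114 and 112 CPM with GSK126 and 124, 119 and 119 CPM with DZNep, against 99.4, 95.9 and 83.3 CPM in DMSO, and rose by 0.31 ± 0.06 (adjusted p = 0.00103) with GSK126 and by 0.38 ± 0.06 (adjusted p = 8.08e-06) with DZNep. Hip1r had 4.28, 4.86 and 4.8 CPM with DZNep, against 7.67, 7.22 and 7.98 CPM in DMSO, and fell by 0.71 on the log2 scale (1.64-fold lower, adjusted p = 7.59e-07). The Hip1 and Hip1r libraries with DZNep lay outside the DMSO ranges, on opposite sides. Exons of Hip1r share 918 bases with Vps37b on the other strand, so part of its low count is uncertain.

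Fcho2, an F-BAR protein that starts pits, had 96.7, 94.1 and 93.5 CPM with DZNep, against 123, 115 and 98.6 CPM in DMSO, and fell by 0.24 on the log2 scale (adjusted p = 0.00251). With siEzh2 it rose by 0.2 ± 0.06 (adjusted p = 0.0228), a call lost without scr replicate 1 or 2 or siEzh2 replicate 1 or 3 (adjusted p 0.0533 to 0.084). Epn2, which encodes epsin 2, a ubiquitin-binding protein that curves the membrane, had 112, 109 and 112 CPM with siEzh2, against 85.7, 97 and 92.2 CPM in scr. The groups did not overlap, and it rose by 0.28 ± 0.05 (adjusted p = 0.000333), and by 0.18 ± 0.05 with DZNep (adjusted p = 0.00438). Epn1, the most abundant of the 6 per kilobase, was not called with GSK126 (-0.04 ± 0.07), DZNep (0.15 ± 0.07) or siEzh2 (0.13 ± 0.07).

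Of the 4 scaffolds that gather early pits, DZNep raised 1 and lowered 1, where 31.2% of all genes were called higher and 31% lower. Itsn1, whose product joins dynamin, EPS15 and actin regulators, had 139, 135 and 146 CPM with DZNep, against 92.9, 93.3 and 89.7 CPM in DMSO, and rose by 0.61 ± 0.04 (1.52-fold, adjusted p = 4.39e-10). It was also higher with GSK126, at 105, 104 and 102 CPM, by 0.17 ± 0.04 (adjusted p = 0.0155). The GSK126 call was lost without DMSO replicate 3 or GSK126 replicate 1 or 2 (adjusted p 0.0508 to 0.0576). Eps15, an EH-domain scaffold bound to AP-2, had 135, 144 and 143 CPM with GSK126 and 98.8, 97.2 and 94.6 CPM with DZNep, against 126.4, 124.9 and 120.9 CPM in DMSO. It thus lay above DMSO with GSK126 and below it with DZNep, with a rise of 0.18 ± 0.05 (adjusted p = 0.011) and a fall by 0.36 on the log2 scale (adjusted p = 1.26e-06). The GSK126 call was lost without GSK126 replicate 2 or 3 (adjusted p 0.0537 to 0.0605). Eps15l1, the relative of Eps15, was not called with either compound and rose by 0.17 ± 0.06 with siEzh2 (adjusted p = 0.036). Its siEzh2 call held without scr replicate 3 and was lost without any other library of the pair (adjusted p 0.0502 to 0.115). Itsn2 was called in none of the 3 comparisons (0.15 ± 0.08 with GSK126, 0.19 ± 0.08 with DZNep and 0.06 ± 0.08 with siEzh2).

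Dab2, an adaptor that carries lipoprotein receptors and integrins into pits, had the largest change with GSK126. It had 76.1, 81.9 and 83.6 CPM with GSK126 and 48.4, 49.1 and 48.9 CPM with DZNep, against 53.8, 53.7 and 47.7 CPM in DMSO. All GSK126 libraries were far above DMSO, a rise of 0.64 ± 0.06 (1.56-fold, adjusted p = 7.19e-07), while the DZNep libraries lay inside the DMSO range (-0.08 ± 0.06, adjusted p = 0.268). With siEzh2 it had 53.4, 47.9 and 52.4 CPM, against 59.3, 62.2 and 68.6 CPM in scr, and fell by 0.31 on the log2 scale (adjusted p = 0.00118). Dab2 was the only member called lower with siEzh2 against scr.

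Of the scission proteins, Dnm2, the widely expressed dynamin GTPase, fell by 0.16 on the log2 scale with DZNep (adjusted p = 0.00353) and was not called with GSK126 (-0.11 ± 0.04) or siEzh2 (-0.09 ± 0.04). Snx9, which binds dynamin and promotes actin assembly at the neck, had 63.5, 56.7 and 61 CPM with siEzh2, against 50.8, 53.6 and 53 CPM in scr. It rose by 0.2 ± 0.05 there (adjusted p = 0.00642). With DZNep it rose by 0.13 ± 0.05 (adjusted p = 0.0389), a call lost without DMSO replicate 2 or 3 or DZNep replicate 1 or 2 (adjusted p 0.0572 to 0.145).

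**Figure D3:**
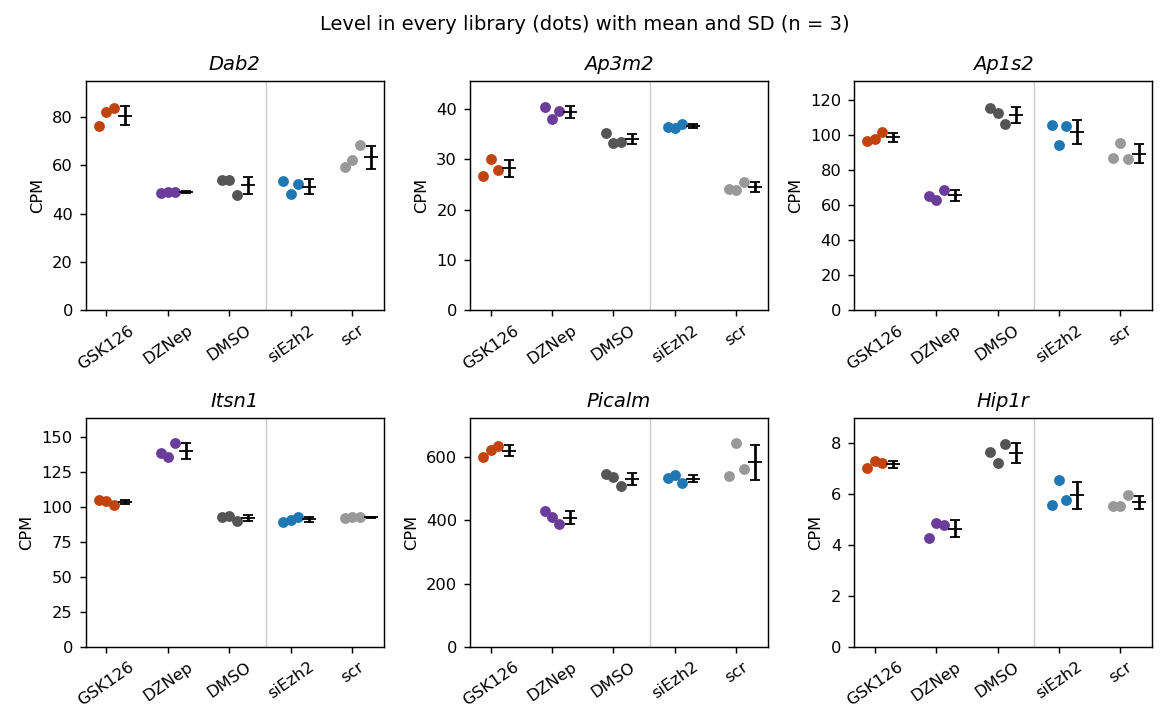
Level in CPM of 6 members in each of the 15 libraries (dots), with the mean and SD of 3 libraries beside them, the compound arm left of the grey line and the siRNA arm right of it. Dab2 is highest with GSK126, Itsn1 with DZNep, Ap1s2, Picalm and Hip1r are lowest with DZNep, and Ap3m2 is lowest in scr.

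The controls of the arms were not alike for these genes. With scr against DMSO, 11 of the 34 members were called (32.4%), 3 higher and 8 lower, where 25.9% of all genes were called, 12.2% higher and 13.6% lower. Ap3m2 fell by 0.47 on the log2 scale (adjusted p = 2.35e-06), Hip1r by 0.43 (adjusted p = 0.000792), Ap1s2 by 0.32, Fcho2 by 0.25, Ap1g1 by 0.24, Snx9 by 0.21, Epn2 by 0.17 and Eps15 by 0.13. Dab2 rose by 0.29 ± 0.06, Ap1g2 by 0.28 ± 0.08 and Hip1 by 0.22 ± 0.06. The calls of Eps15 (adjusted p 0.0912 to 0.139 without DMSO replicate 1 or 2 or scr replicate 1 or 3), Ap1g2 (0.0517 to 0.127 without DMSO replicate 2 or 3 or scr replicate 3) and Epn2 (0.0759 without scr replicate 1) were lost when those libraries were left out. The siRNA arm and the compound arm also differ in how the cells were treated, and that difference and the scrambled siRNA itself cannot be told apart.

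Since siEzh2 was set against scr, its values against DMSO are given beside them, a comparison added after the data were seen. Against DMSO, 4 members were called where 14.2% of all genes were called, and 1 of them, Eps15l1, was also among the 10 called against scr. The other 9 were not called against DMSO. Ap3m2 differed by 0.58 ± 0.06 against scr and by 0.11 ± 0.05 against DMSO (adjusted p = 0.202), and Dab2 by -0.31 ± 0.06 against scr and by -0.01 ± 0.06 against DMSO (adjusted p = 0.929). Ap1g1 had 0.32 ± 0.04 against scr and 0.08 ± 0.04 against DMSO (adjusted p = 0.224), and Snx9 had 0.2 ± 0.05 and -0.01 ± 0.05 (adjusted p = 0.936). For these 4 genes the siEzh2 mean lay nearer to the DMSO mean than to the scr mean. The members called against DMSO and not against scr were Ap1g2 (0.29 ± 0.08), Ap1s3 (-0.38 ± 0.09) and Hip1r (-0.36 ± 0.09).

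**Figure D4:**
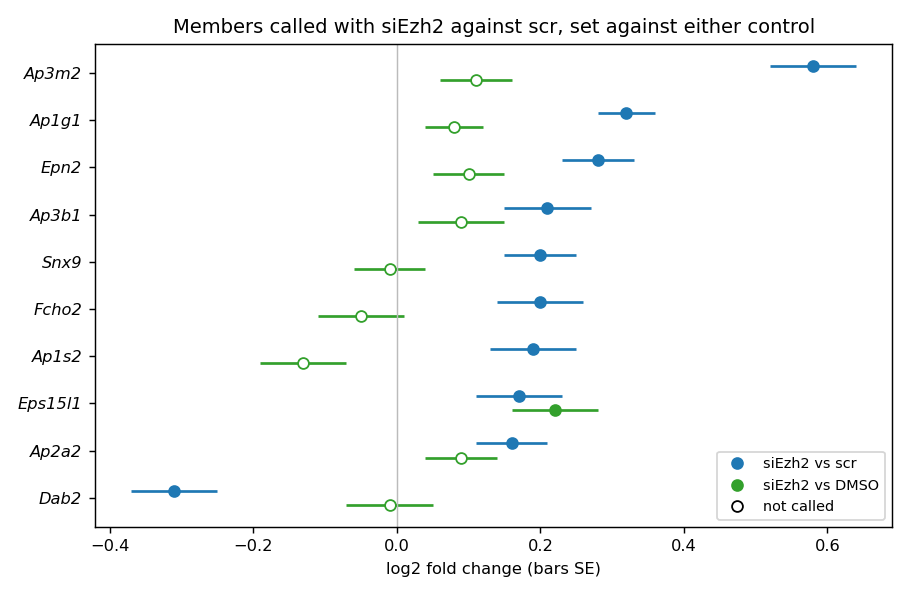
Log2 fold change (dots; bars are standard errors) of the 10 members called with siEzh2 against scr, shown against scr in blue and against DMSO in green, filled where called. Against DMSO, Eps15l1 alone is filled, and Ap3m2 stands at 0.11 in place of 0.58.

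The compounds were compared with each other at 2 µM each, as 1 pair. DZNep inhibits an enzyme that clears S-adenosylhomocysteine and is a nucleoside analogue, while GSK126 competes with S-adenosylmethionine in EZH2. With DZNep against GSK126, 18 members were called (52.9%), 12 higher and 6 lower, where 64.6% of all genes were called. The largest falls were Dab2 by 0.72, Hip1r by 0.62, Picalm by 0.6, Ap1s2 by 0.59 and Eps15 by 0.54 on the log2 scale, each with a standard error of 0.05 to 0.09. Ap2m1, at 85.9, 84.5 and 88.1 CPM with DZNep and 53.1, 58.4 and 56.2 CPM with GSK126, rose by 0.62 ± 0.11 (adjusted p = 0.000177). Ap3m2 (0.48 ± 0.05), Ap1g2 (0.48 ± 0.08) and Itsn1 (0.44 ± 0.04) were also higher with DZNep. The clathrin light chain Clta was higher by 0.42 ± 0.09 (adjusted p = 0.000565), and Cltb (0.04 ± 0.06, 95% interval -0.08 to 0.15) and Cltc (0.05 ± 0.08, -0.11 to 0.21) were not called. Of the 18 calls, 4 were lost when single libraries were left out: Snx9 without any GSK126 library or DZNep replicate 1 or 2 (adjusted p 0.0621 to 0.192), Epn1 without GSK126 replicate 1 or DZNep replicate 2 (0.11 to 0.135), Ap1s3 without replicate 2 of either (0.055 to 0.105) and Ap1m1 without replicate 3 of either (0.0559 to 0.0623).

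The effect of the knockdown and that of GSK126, each against its own control, differed for 11 members (32.4%), where 20.7% of all genes differed. The effect of siEzh2 minus that of GSK126 was 0.85 ± 0.08 for Ap3m2 (adjusted p = 1.3e-07), which rose with siEzh2 and fell with GSK126. It was -0.95 ± 0.09 for Dab2 (adjusted p = 2.03e-07), which fell with siEzh2 and rose with GSK126. As scr stood apart from DMSO for both genes, with Ap3m2 lower and Dab2 higher in scr, these differences hold that gap as well. With DMSO as the control of both effects, an alternative added after the data were seen, the difference was 0.38 ± 0.06 for Ap3m2 and -0.65 ± 0.06 for Dab2. In that way 11 of the 34 members were called, where 20.4% of all genes were called. Of the 11 members called with scr as the control of siEzh2, 7 were called in that way too. Ap1g1 (0.01), Ap1s2 (0.04), Fcho2 (0.05) and Cltb (0.12) were not.

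The effect of DZNep minus that of siEzh2 was called for 17 members, where 51.1% of all genes were called. It was -0.95 ± 0.08 for Ap1s2, -0.79 ± 0.13 for Hip1r, 0.63 ± 0.06 for Itsn1 and 0.5 ± 0.12 for Ap1g2. Ap1s2, Hip1r and Ap1g2 also differed between scr and DMSO. With DMSO as the control of both, the difference was -0.64 ± 0.06 for Ap1s2, -0.36 ± 0.09 for Hip1r, 0.62 ± 0.04 for Itsn1 and 0.22 ± 0.08 for Ap1g2, each still called. In that way 19 of the 34 members were called, where 63.5% of all genes were called. Of the 17 members, 13 were among these. The other 4 were Cltb (-0.08) and Ap1g1, Ap3m2 and Dab2, whose differences had the opposite sign (0.09, 0.11 and -0.07, against -0.15, -0.37 and 0.22 with scr as the control of siEzh2). When single libraries were left out, calls of 8 of the 17 were lost: Ap2m1 in 10 cases (adjusted p 0.0688 to 0.104), Ap1g1 in 9 (0.057 to 0.12), Dab2 in 8 (0.0566 to 0.145), Ap1s1 in 7 (0.0541 to 0.142), Ap2a2 in 4 (0.0716 to 0.0887), Cltb in 2 (without DMSO replicate 3 or scr replicate 2), Ap2a1 in 2 (without DZNep replicate 1 or scr replicate 2) and Picalm in 1 (without scr replicate 3).

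Related members of 1 kind were compared as ratios of counts per kilobase within a library, which library size does not affect. Over 9 pairs and 3 comparisons, 27 tests in all, 18 reached the smallest p that an exact two-sided permutation test of 3 libraries against 3 allows, 0.1 (0.15 after Benjamini-Hochberg adjustment), so none could pass 0.05. The log2 ratio of Hip1 to Hip1r was 3.89 ± 0.14 with DZNep, against 2.79 ± 0.19 in DMSO (SD, n = 3 each), the widest gap of the 27. That of Ap2a1 to Ap2a2 was 0.57 ± 0.04 with DZNep, against 1.07 ± 0.01 in DMSO, so the 2 α subunits came closer to equal. That of Eps15 to Eps15l1 was 0.02 ± 0.1 with DZNep, against 0.46 ± 0.06 in DMSO. Clta to Cltb stood at 2.45 ± 0.08 with DZNep, against 2.12 ± 0.09 in DMSO, and Itsn1 to Itsn2 at -0.96 ± 0.12 with DZNep, against -1.38 ± 0.18 in DMSO. The ratio of Ap3m1 to Ap3m2, the widely expressed over the neuronal form, was 0.66 ± 0.13 with siEzh2, against 1.29 ± 0.1 in scr. It was 1.04 ± 0.08 with GSK126, against 0.75 ± 0.08 in DMSO. Epn1 to Epn2 overlapped between groups in all 3 comparisons. The level of a ratio depends on the length given to each gene, which adds the same amount in every library and so leaves differences between groups as they are. With the longest transcript in place of all exons, the DMSO ratio moved by more than its SD for 8 of the 9 pairs. On the linear scale, Eps15 to Eps15l1 in DMSO was 0.923 in place of 1.38, so that which of the pair is higher is not settled, and Hip1 to Hip1r was 10.4 in place of 6.91.

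**Figure D5:**
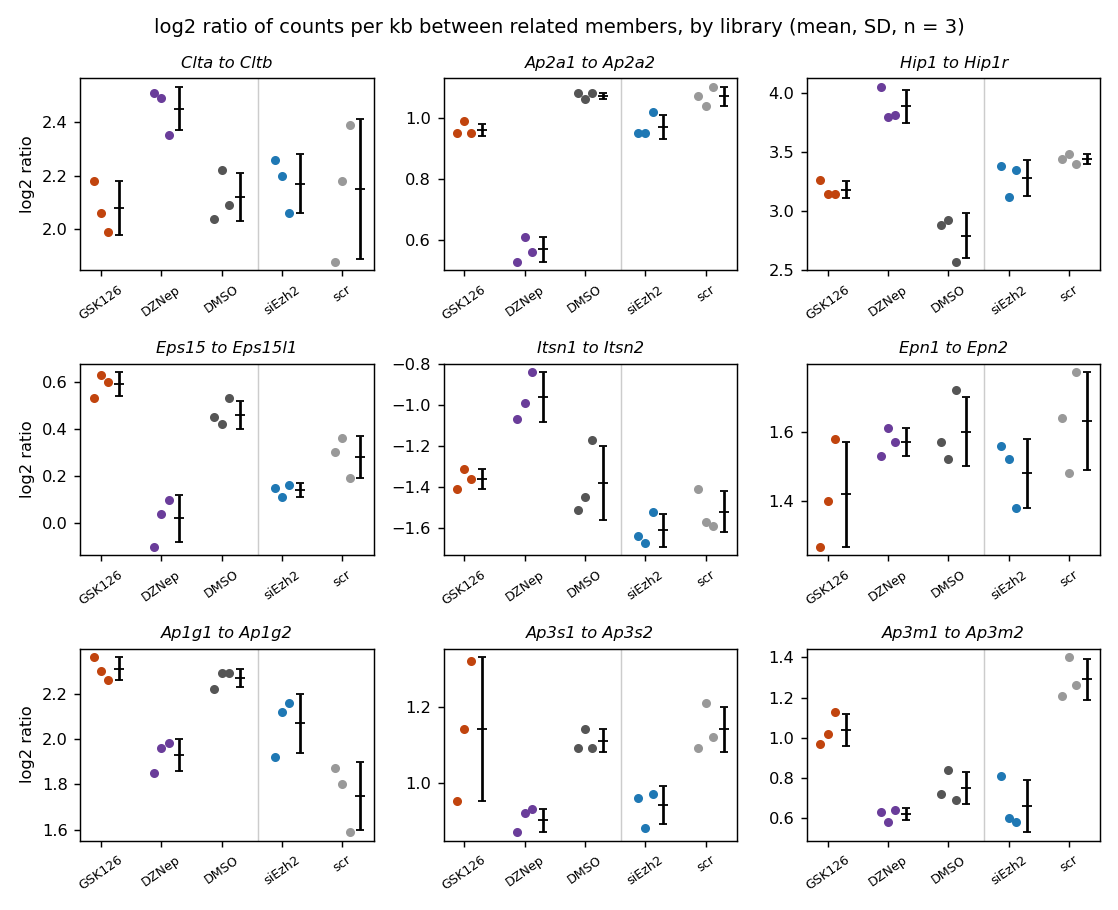
Log2 ratio of counts per kb between related members in each library (dots), with mean and SD of 3 libraries, the compound arm left of the grey line and the siRNA arm right of it; the vertical axes differ and do not start at 0. DZNep stands apart from DMSO for Hip1 to Hip1r, Ap2a1 to Ap2a2 and Eps15 to Eps15l1, and scr stands highest for Ap3m1 to Ap3m2.

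Other genes of coated transport were read from 8 lists. Over all genes, 7.15% were called higher and 5.54% lower with GSK126, 31.2% and 31% with DZNep, and 13.2% and 12.9% with siEzh2. Of 28 tested genes for uncoating, kinases, phosphoinositide enzymes and late scission, 7 were higher and 1 lower with GSK126, 5 higher and 9 lower with DZNep, and 3 higher and 7 lower with siEzh2. Those were 28.6%, 50% and 35.7% of the list, against 12.7%, 62.3% and 26.1% of all genes. Fcho1, a relative of Fcho2, was at 1.51 ± 0.296 CPM with GSK126 and 0.224 ± 0.0873 CPM with DZNep, against 0.589 ± 0.147 CPM in DMSO, a rise of 1.34 ± 0.24 and a fall by 1.45 on the log2 scale. The largest fall with GSK126 was Dnm1, a dynamin best known from neurons, by 0.26, and the largest rise with DZNep was Reps2, an EH-domain protein, by 0.79 ± 0.29. The call of Reps2 was lost without DMSO replicate 1 or 3 or DZNep replicate 1 or 2 (adjusted p 0.0574 to 0.102). Dnajc6, which encodes auxilin, an uncoating cofactor, rose by 1.04 ± 0.25 with siEzh2 against scr, and the phosphatase gene Ocrl fell by 0.3, a call lost without siEzh2 replicate 1 (adjusted p = 0.0662). Dnajc6 was at 1.24 ± 0.0403 CPM with siEzh2, against 0.585 ± 0.262 CPM in scr, and fell by 1.14 in scr against DMSO.

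Of 22 other adaptor and sorting genes, 2 were higher and 1 lower with GSK126, 9 higher and 7 lower with DZNep, and 4 higher and 2 lower with siEzh2. Those were 13.6%, 72.7% and 27.3% of the list, against 12.7%, 62.3% and 26.1% of all genes. Tom1l2 rose by 0.26 ± 0.05 and Ap5z1, the ζ subunit of AP-5, fell by 0.28 with GSK126. Ap4b1, the β subunit of AP-4, rose by 0.62 ± 0.15 and Ap5m1, the μ subunit of AP-5, fell by 0.68 with DZNep. Ap4b1 rose by 0.48 ± 0.17 and the β-arrestin gene Arrb2 fell by 0.42 with siEzh2. The call of Ap4b1 with siEzh2 held without scr replicate 3 and was lost without any other library of the pair (adjusted p 0.0609 to 0.125). Of 9 cargo receptors, 2 were higher and 1 lower with GSK126, 3 higher and 3 lower with DZNep, and 1 higher and 3 lower with siEzh2. Those were 33.3%, 66.7% and 44.4% of the receptors, against 12.7%, 62.3% and 26.1% of all genes. Vldlr, the VLDL receptor, was at 96.2 ± 2.72 CPM with GSK126 and 11.2 ± 1.33 CPM with DZNep, against 73.4 ± 9.91 CPM in DMSO, a rise of 0.39 ± 0.08 and a fall by 2.71 on the log2 scale (6.54-fold lower, adjusted p = 3.98e-14). Sort1 (sortilin) fell by 0.16 with GSK126, a call lost without any library but DMSO replicate 3 (adjusted p 0.0605 to 0.0907), and the reelin receptor gene Lrp8 rose by 0.49 ± 0.1 with DZNep. Sort1 rose by 0.22 ± 0.05 and Igf1r, the IGF1 receptor gene, fell by 0.52 with siEzh2 against scr, while in scr against DMSO Sort1 fell by 0.25 and Igf1r rose by 0.35 ± 0.12. The Igf1r call in scr was lost without DMSO replicate 3 or any scr replicate (adjusted p 0.0592 to 0.185).

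Of 9 genes of the COPI coat, which works in the Golgi, 0 were higher and 2 lower with GSK126 (Copg1 by 0.16, a call lost without any library but DMSO replicate 1, adjusted p 0.0715 to 0.192), 1 was higher (Copz1, 0.24 ± 0.06) and 3 lower (Copg2 by 0.35) with DZNep, and 3 were higher (Copz1, 0.32 ± 0.06) and 0 lower with siEzh2. Of 11 genes of the COPII coat, which buds from the endoplasmic reticulum, edgeR called 0 with GSK126, with 1 at an unadjusted p under 0.05 and 0 by DESeq2. With DZNep 7 were higher (Sec13, 0.3 ± 0.06) and 0 lower, and with siEzh2 4 were higher (Sec24d, 0.49 ± 0.07) and 1 lower (Sar1b by 0.16, a call lost without scr replicate 1 or 2 or siEzh2 replicate 3, adjusted p 0.0698 to 0.0998). Sec24d fell by 0.5 in scr against DMSO. Of the COPI genes, 22.2% were called with GSK126, 44.4% with DZNep and 33.3% with siEzh2. Of the COPII genes, 63.6% were called with DZNep and 45.5% with siEzh2. Over all genes the shares were 12.7% with GSK126, 62.3% with DZNep and 26.1% with siEzh2.

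Caveolae are an uptake route that needs no clathrin. Of 10 genes of caveolae and the EHD family, 3 were higher and 0 lower with GSK126. With DZNep 6 were higher and 3 lower, and with siEzh2 2 were higher and 2 lower. Cav1, the main caveolar coat protein, was at 26 ± 1.29 CPM with GSK126 and 39.2 ± 2.8 CPM with DZNep, against 15.5 ± 0.142 CPM in DMSO, a rise of 0.74 ± 0.07 with GSK126 and of 1.34 ± 0.07 with DZNep. Ehd2, an ATPase at the caveolar neck, fell by 1.06 with DZNep and by 0.43 with siEzh2 against scr, and Ehd1 rose by 0.36 ± 0.07 with siEzh2. Of 9 genes of retromer and sorting nexins, 1 was lower with GSK126 (Snx1 by 0.3), 1 was higher (Vps29, 0.27 ± 0.07) and 2 lower (Snx5 by 0.35) with DZNep, and 5 were higher (Snx1, 0.44 ± 0.05) and 1 lower (Snx5 by 0.16, a call lost without scr replicate 1 or 2 or siEzh2 replicate 3, adjusted p 0.0745 to 0.0995) with siEzh2. Of 8 genes of BLOC-1, which works beside AP-3 in sorting melanosome cargo, 2 were higher (Bloc1s2, 0.74 ± 0.12) and 4 lower (Snapin by 0.83) with DZNep. In BLOC-1, edgeR called 0 genes with GSK126 and 0 with siEzh2, with 2 and 0 at an unadjusted p under 0.05, and DESeq2 called 0 in each. With DZNep, the share called was 90% for caveolae and EHD, 33.3% for retromer and sorting nexins and 75% for BLOC-1, against 62.3% of all genes. For caveolae and EHD it was 30% with GSK126 and 40% with siEzh2, and for retromer and sorting nexins 11.1% and 66.7%. Of all genes, 12.7% were called with GSK126 and 26.1% with siEzh2. Of the 13 genes of these lists named as called with siEzh2 against scr, 12 were not called with siEzh2 against DMSO, and Arrb2 was called with both.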

How the data were processed

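RNA sequencing counts from 15 B16-F10 libraries were used, 3 in each of 5 groups taken from the treatment label. The authors deposited raw read counts, whole numbers for each gene. Per the submitters' processing notes, the tools were STAR and featureCounts and the build GRCm38. Versions, annotation and strand setting were not given in the sources used here. Overlapping genes and close relatives could therefore share reads. Each column was matched to its library by the name in its title, and 0 columns of other samples were left aside. The running number in the name of the library labelled GSK126 replicate 1 adjoins those of the siRNA arm, apart from those of every other compound-arm library, and no label says what these numbers stand for. It was used as labelled. Without it, 6 members were called with GSK126, against 7 with it. Symbols and positions came from GENCODE M21 (45229 of 46078 identifiers matched), and promoter windows from RefSeq on GRCm38.p6 (30 of 34 members matched).

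The main test was edgeR 4.0.16 (R 4.3.3) with its robust quasi-likelihood fit, TMM scaling and filterByExpr by group. It used every library at once with group means and no covariate, after the steps were tested on simulated data. The Benjamini-Hochberg adjustment ran over 15152 genes with a threshold of 0.05. The common dispersion was 0.00409. Chi-square per degree of freedom between replicates was 5.81 to 38.1 over 15 pairs, so none was counted as a duplicate. Libraries with the same replicate number did not deviate together (r from -0.176 to 0.156 over 15 pairs). Members and lists were chosen with earlier results of these data known. The rule for named genes took the clathrin chains, every called member with a log2 fold change of at least 0.5, the 6 largest called members of each main comparison, and the largest called gene each way in each other list. Some genes of the other lists are not reported here. The alternatives were RLE size factors, library totals alone, no count filter, the compared groups only, a replicate block, DESeq2 1.42.0, each library left out, and, added later, DMSO as the control of siEzh2.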

Additional observations from a re-analysis of the deposited data

Results flagged for a closer look

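The effect of siEzh2 (against scr) and that of GSK126 (against DMSO), both acting on EZH2, differed by the edgeR test of the difference for 11 members. These were 32.4% of the members, where 20.7% of all genes differed. The members' differences are given here as siEzh2 effect minus GSK126 effect on the log2 scale. They were 0.85 for Ap3m2, 0.36 for Ap1s2, 0.3 for Fcho2, 0.28 for Cltb, 0.25 for Ap1g1 and 0.21 for Ap2b1. They were -0.95 for Dab2, -0.47 for Ap1s3, -0.39 for Hip1, -0.35 for Picalm and -0.2 for Itsn1. The adjusted p was 1.3e-07 for Ap3m2, 2.03e-07 for Dab2 and 0.0328 for Ap2b1, the weakest. Calls of 4 were lost when single libraries were left out: Ap2b1 in 8 cases (adjusted p 0.0512 to 0.0839), Itsn1 in 7 (0.055 to 0.0714), Fcho2 in 3 (0.0522 to 0.053) and Cltb in 3 (0.0523 to 0.0646). The controls of these effects, scr and DMSO, differed for Ap3m2, Ap1s2, Fcho2, Ap1g1, Dab2 and Hip1, and with DMSO as the control of both effects the differences were 0.38 for Ap3m2, -0.65 for Dab2 and -0.17 for Hip1, while Ap1s2 (0.04), Fcho2 (0.05) and Ap1g1 (0.01) were not called (adjusted p 0.64 to 0.852).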

How the results depend on the processing

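With GSK126, the count of 7 called members was 4 when the fit held the compared groups only, and 3 (without GSK126 replicate 2) to 8 when each library was left out in turn. Dab2, Hip1 and Ap3m2 were called with GSK126 under every alternative. With siEzh2, the count of 10 was 4 with DMSO as the control, where these values had the other sign than against scr: -0.009 for Snx9, -0.009 for Cltb, -0.007 for Cltc, -0.132 for Ap1s2, -0.053 for Fcho2, -0.101 for Dnajc6, -0.058 for Ehd1, -0.028 for Sort1, 0.197 for Ocrl, -0.017 for Sec24d and 0.027 for Snx5. The DZNep effect minus the siEzh2 effect turned to 0.087 for Ap1g1, 0.107 for Ap3m2 and -0.071 for Dab2 with that control. With the replicate block the counts were 7 for GSK126, 22 for DZNep and 10 for siEzh2, and these calls were lost: Eps15 in scr against DMSO (adjusted p = 0.0549), Snx9 in DZNep against GSK126 (0.0584), Ap1g1 (0.0591) and Dab2 (0.0546) in the DZNep effect minus the siEzh2 effect, and Copg1, of the other lists, with GSK126 (0.052). A tally took the counts of called members, the called members of all 7 comparisons and the clathrin chains. It also took the named genes of the other lists and the ratios, each under each alternative. In it, 1934 values kept direction and side of the threshold, moved within the spread or, for counts, stayed near the main count. A further 233 lost their call or were counts that fell further, and 4 gained a call or were counts that rose further. The sign changed in 14, those listed above, and 8 ratios moved with the longest transcript length. Another scaling moved the median log2 fold change of all genes by at most 0.04. With 3 libraries a group, the members' standard errors in the 3 main comparisons were 0.04 to 0.13 on the log2 scale.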
